A study of Mus musculus with 60 samples.

Results

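The F-box protein genes are described here across heart, gastrocnemius muscle and neocortex of young and old mice. Members are all genes on the array whose symbol starts with Fbxo, Fbxl or Fbxw followed by a digit, without Fbxo32. The rule gave 66 genes of 18193 with a probe set of their own, measured by 114 of 45101 probe sets. Of the 66, 31 are Fbxo, 17 are Fbxl and 18 are Fbxw genes, and 25 have more than 1 probe set. One Fbxl entry, Fbxl12os, is a transcript from the strand opposite Fbxl12.

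An F-box protein is the part of an SCF ubiquitin ligase that chooses what is to be degraded. Its F-box holds SKP1, which joins it to the scaffold CUL1, and RBX1 on the scaffold brings in a ubiquitin-conjugating enzyme such as CDC34 or a UBE2D protein. The scaffold is switched on when NEDD8 is attached to it and off when the COP9 signalosome takes NEDD8 away. The names follow the part that binds the substrate: WD40 repeats in Fbxw proteins, leucine-rich repeats in Fbxl proteins, and other or no known domains in Fbxo proteins. In skeletal muscle the family is best known for ligases that act in atrophy, among them Fbxo32 (atrogin-1) and Fbxo30 (MUSA1).

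Expression was measured on 60 Affymetrix Mouse Genome 430 2.0 arrays, with 5 biological replicates for each tissue and group. All mice were male B6C3F1 hybrids, a cross of C57BL/6 and C3H/He, and all were fed AIN93M-based diets. Young controls were 5 months old and the other 3 groups 30 months old, and these received control diet, caloric restriction (CR, labelled 40%; the calories in the study's methods amount to a smaller restriction) or control diet with resveratrol at 4.9 mg per kg per day from 14 months of age. The mice were of 1 sex and 1 hybrid, the 3 older groups had no younger diet groups beside them, and whether the 3 tissues came from the same mice was not given in the labels. Values are linear signals, and differences are log2 differences with a standard error (SE) and a p from limma, adjusted over all genes tested in the tissue with a threshold of 0.05. Each gene is read through 1 representing probe set, and genes whose mean signal lay under the 40th percentile of a tissue were left untested there.

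Array-wide values moved with the groups in ways that touch several results. In the heart the 3′ probe set of Actb exceeded the 5′ one by 1.26 to 1.66 on the log2 scale in old controls, against 0.61 to 0.87 in young controls, 0.66 to 0.89 under CR and 0.68 to 0.95 under resveratrol (adjusted p = 0.022 for each, exact permutation test over 36 tests, two-sided). This difference rises with RNA breakdown or incomplete labelling. In muscle the poly-A RNAs added before labelling read 6.40 to 7.19 (log2) in old controls and 9.16 to 10.6 and 9.84 to 10.3 under CR and resveratrol. The 3′ to 5′ difference of Gapdh also separated old controls from both diets, at -0.08 to 0.25 in heart old controls, -0.28 to -0.25 under CR and -0.27 to -0.17 under resveratrol, and at -0.22 to 3.23 in muscle old controls (3.23 in replicate 1), -0.30 to -0.23 under CR and -0.30 to -0.23 under resveratrol (adjusted p = 0.022 for each). In the heart it was -0.28 to -0.14 in young controls (adjusted p = 0.022). The macrophage marker sum (10 genes) did not overlap between old controls and either diet group in the heart (14512 to 19273, against 22201 to 26209 under CR and 19396 to 28901 under resveratrol). Tissue identity followed the labels: Myh6, the cardiac myosin, read 63356 to 118480 in heart and at most 154 in the other tissues, and Snap25, a neuronal synapse protein, read 21819 to 25252 in neocortex and at most 90.8 in the other tissues. In such bulk tissue, fewer cells of a type and less RNA per cell cannot be told apart.

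Of the 66 genes, 48 were tested in heart, 44 in muscle and 52 in neocortex. In all, 54 were tested in at least 1 tissue, and 12 in none. The 12 are Fbxl12os, Fbxl13, Fbxo15, Fbxo24, Fbxo43, Fbxw10, Fbxw13, Fbxw14, Fbxw18, Fbxw21, Fbxw24 and Fbxw27, and their group means were at most 99.3 in any tissue. Fbxo15 is known from embryonic stem cells, Fbxo43 (EMI2) from the arrest of the egg before fertilization, and several of the Fbxw genes belong to a cluster of related WD40 F-box genes in the mouse. Of a list of 12 members known from germ cells or the early embryo, 3 were tested in heart, 2 in muscle and 3 in neocortex.

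Between tissues of young controls the largest differences were genes high in the neocortex. Fbxl16, a leucine-rich F-box protein of neurons, read 11529 to 20400.0 there, against 211 to 339.5 in heart and 206 to 375 in muscle. Neocortex exceeded heart by a log2 difference of 5.91, SE 0.18, adjusted p = 7.48e-36, and against muscle the log2 difference was 5.83. No heart or muscle array reached the range of the neocortex. Fbxo2, which binds high-mannose glycoproteins and is abundant in neurons, read 2015 to 2346 in neocortex and lay under the cutoff of the filter in heart (15.7 to 62.3) and muscle (31.8 to 79.5), so that it was at least 35.5-fold higher than heart and at least 30.9-fold higher than muscle when these were set to their cutoffs of 60.5 and 69.5. Fbxo41, an F-box protein found mainly in neurons, read 1724 to 2208 in neocortex, at least 33.6-fold higher than heart and at least 29.2-fold higher than muscle on the same reckoning. Fbxl2 was at least 16.5-fold and at least 14.4-fold higher, and Fbxo44, a relative of Fbxo2, at least 17.9-fold higher than muscle, with a log2 difference of 3.99 from heart (adjusted p = 8.07e-10). The other probe set of Fbxo44, 1430541_at, showed a smaller excess, averaging 361 in neocortex, 85.2 in heart and 67.3 in muscle over all arrays of a tissue. Fbxl18 was at least 4.74-fold higher than heart, and Fbxl19 (log2 difference of 2.29) and Fbxo33 (log2 difference of 2.09) were higher in neocortex than in heart as well.

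Other members were high in muscle. Fbxo30, the atrophy ligase MUSA1, read 505 to 654 in muscle, 271 to 483 in heart and 95.9 to 129 in neocortex, in 3 ranges that did not overlap. Fbxl4, a mitochondrial protein needed to maintain mitochondrial DNA, read 1579 to 2311 in muscle and 595 to 743 in heart (log2 difference of 1.45, SE 0.13, adjusted p = 1.04e-14), and the heart range overlapped that of neocortex (625 to 756). Fbxl7, known to act on the mitotic kinase Aurora A, was at least 3.33-fold higher in muscle than in neocortex and at least 3.15-fold higher than in heart (adjusted p = 0.00192), where its arrays spread from 8.29 to 223 and their geometric mean of 43.1 lay under the cutoff of 60.5. Its other probe sets did not show the excess over heart. Over all arrays of a tissue, 1439890_at averaged 88.8 in heart and 71.0 in muscle, and 1456220_at 89.1 and 83.5. Lower in muscle than in heart were Fbxl6 (log2 difference of -1.83, SE 0.30, adjusted p = 7.23e-07) and Fbxo10 (log2 difference of -1.61). Fbxo5 (EMI1), an inhibitor of the anaphase-promoting complex, was at least 3.92-fold lower in muscle, but 1 heart array, young control replicate 1, read 2096 and the other 4 read 118 to 247. Fbxl15 (-1.30) and Fbxo16 (at least 1.53-fold) were lower in muscle too, and Fbxo44 at least 1.12-fold.

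Over the 54 genes tested in this model of all arrays, 25 were higher and 10 lower in neocortex than in heart, where 33.5% and 34.9% of all 15029 genes tested were higher and lower. Against muscle, 26 were higher and 14 lower in neocortex (35.6% and 34.8% of all genes). Muscle against heart gave 15 higher and 10 lower (21.8% and 29.3%).

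**Figure D1:**
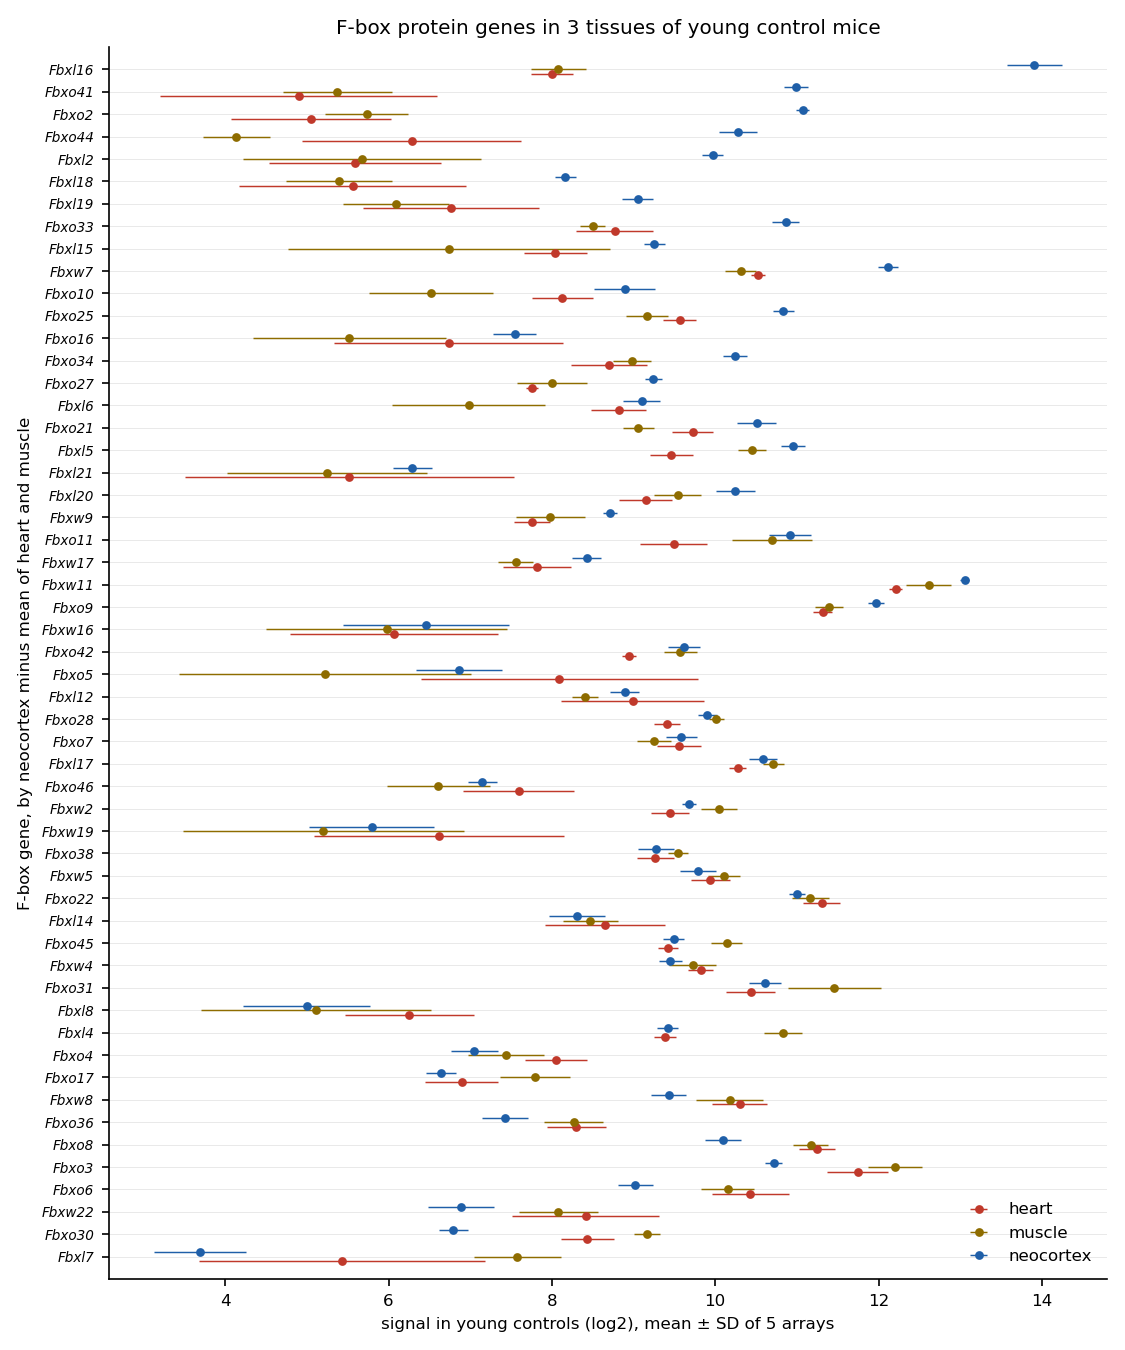
Level of the 54 F-box genes tested in at least 1 tissue, in young controls. The horizontal axis is the mean log2 signal of 5 arrays with its SD for heart, muscle and neocortex, and genes are ordered by neocortex minus the mean of the other tissues. Fbxl16, Fbxo2 and Fbxo41 lie at the top of the order, and Fbxl7 and Fbxo30 are lower in neocortex than in muscle.

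With age, 3 F-box genes rose and 2 fell in the heart, where 7.05% of all 13278 genes tested rose and 3.79% fell. The largest calls were opposite in direction: Fbxo31 and Fbxw11 rose, and Fbxo25 and Fbxo9 fell. Fbxo9 marks the mTOR regulators TEL2 and TTI1 for degradation. It read 2752, 2577, 2711, 2296 and 2418 in young controls and 1589, 1538, 1857, 1417 and 2029 in old controls (log2 change of -0.61, SE 0.10, adjusted p = 0.000437). Fbxo25, described in heart and brain and reported to act on cardiac transcription factors, read 728, 829, 746, 895 and 615 in young and 473, 471, 481, 408 and 506 in old controls (log2 change of -0.70, SE 0.13, adjusted p = 0.000924). Every old heart was below every young heart for both genes. Fbxo31, which targets cyclin D1 after DNA damage, read 989.7, 1385, 1609, 1365 and 1686 in young controls and 2344, 2014, 2082, 2853 and 2259.7 in old controls (log2 change of 0.73, SE 0.16, adjusted p = 0.00411). Fbxw11 (beta-TrCP2), a receptor for phosphorylated beta-catenin and I-kappa-B, read 4519, 4409, 4939, 4855 and 4968 in young and 7085, 7353, 6765, 6765 and 7244 in old controls (log2 change of 0.57, SE 0.08, adjusted p = 6.11e-05). Both were higher in every old heart than in any young heart. Fbxo22, which acts on histone demethylases of the KDM4 family, read 1988, 2537, 2514, 3069 and 2677 in young and 3634, 4707, 3785, 2956 and 2780.5 in old controls (log2 change of 0.47, SE 0.15, adjusted p = 0.0483), and its groups overlapped. The Fbxo22 call was lost without any 1 of old control replicates 1, 2 and 3 and young control replicates 1, 2, 3 and 5 (adjusted p 0.0593 to 0.146). The Actb and Gapdh 3′ to 5′ differences given above separate old from young hearts as well, and their part in these results was not tested.

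The second probe set of Fbxo9 gave the same direction with age (-1.26, adjusted p = 0.000501). That of Fbxo31 gave 0.47 (adjusted p = 0.0999). Fbxw11 is uncertain: it is represented by a probe set of the type that may read related transcripts (1437468_x_at), and 1425461_at fell by 1.85 with age (adjusted p = 0.0013) while 1425462_at gave 0.23, not past the threshold.

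CR raised 6 F-box genes in the heart and lowered 6, beside 7.98% and 14.1% of all genes, and resveratrol raised 4 and lowered 6, beside 7.08% and 10.5%. The median log2 change of the 48 members was 0.08 under CR and 0.07 under resveratrol, against 0.00 and 0.01 over all genes. Both diets were compared with the same 5 old controls that the age comparison uses, so the 3 comparisons are not independent. Fbxo9 rose under both diets: it read 3506, 3282, 2791, 3218 and 3064 under CR (log2 change of 0.92, SE 0.10, adjusted p = 9.05e-07) and 3141, 2602, 3145, 3520.5 and 3298 under resveratrol (log2 change of 0.90, SE 0.10, adjusted p = 2e-06). All 10 arrays were above the highest old control, 2029. Its second probe set rose with both diets, by 1.41 and 1.22 on the log2 scale. Fbxo25 read 759, 757, 874, 720.1 and 714 under CR (log2 change of 0.71, SE 0.13, adjusted p = 0.00027) and 734, 698, 729, 962 and 692 under resveratrol (log2 change of 0.70, SE 0.13, adjusted p = 0.000428). No diet array of Fbxo25 overlapped the old controls. Fbxo3, which acts on the F-box protein FBXL2 in inflammation, rose by 0.52 under CR and 0.50 under resveratrol (adjusted p = 0.00383 and 0.00687). On 1423491_at it gave -0.07 under each diet, and on 1441019_at -0.29 under CR and -0.45 under resveratrol, none past the threshold. With the mean of all its probe sets both calls were lost (adjusted p 0.263 and 0.255).

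Fbxo31 separated the diets on its representing probe set. It read 1952, 1844, 1695, 2191 and 1932 under CR, a range that overlapped old controls (log2 change of -0.26, adjusted p = 0.264), and 869, 870.0, 1302, 728 and 1389 under resveratrol (log2 change of -1.20, SE 0.16, adjusted p = 1.13e-05). Every resveratrol heart lay below every CR and every old control heart. The direct difference of CR minus resveratrol was 0.94 (SE 0.16, adjusted p = 0.00114), a comparison that holds no old control. The other probe set of Fbxo31 fell by 0.55 under resveratrol (adjusted p = 0.0393). With the mean of its probe sets the direct difference between the diets was 0.51 and the call was lost (adjusted p 0.0577). It was also lost with the methods' t-test after adjustment (adjusted p 0.0513).

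Fbxw7, the receptor that marks cyclin E, MYC and NOTCH, fell under both diets. Its old controls read 1744, 1660.4, 1708, 2099 and 1675. CR hearts read 1158, 965, 1147, 1109.9 and 1024 (log2 change of -0.72, SE 0.10, adjusted p = 7.52e-06) and resveratrol hearts 1373, 1425, 1353, 1634 and 1410.0 (log2 change of -0.30, SE 0.10, adjusted p = 0.0289), with no array of either diet in the range of old controls. Every CR heart was also below every resveratrol heart, and the direct difference was -0.41 (adjusted p = 0.0131), lost without old resveratrol replicate 4 (adjusted p 0.0515). The resveratrol call of Fbxw7 was lost without any 1 of old control replicate 4 and old resveratrol replicates 1, 2 and 3 (adjusted p 0.0535 to 0.0998). Young controls read 1399, 1459.8, 1477, 1424 and 1630.1, all below old controls, and the age change did not pass (log2 0.26, adjusted p = 0.0797).

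Other WD40 and leucine-rich members fell under the diets. Fbxw11 read 4838, 4342, 5014, 4411 and 4157 under CR (log2 change of -0.63, SE 0.08, adjusted p = 4.39e-06) and 5605, 5469.6, 5034, 5022 and 4329 under resveratrol (log2 change of -0.47, SE 0.08, adjusted p = 0.0002), all below old controls, but 1425461_at rose by 1.69 under CR (adjusted p = 0.00161). Fbxw8, which works with CUL7 and acts on the insulin receptor substrate IRS1, read 1387, 1520.5, 1307, 1308 and 1482 in old controls and 716, 898, 798, 863 and 849 under resveratrol (log2 change of -0.77, SE 0.13, adjusted p = 0.000208). Under CR Fbxw8 read 852, 871, 756, 932 and 974 (log2 change of -0.68, SE 0.13, adjusted p = 0.00051). Neither diet group overlapped old controls, although the probe set, 1436732_s_at, may read related transcripts and 1458413_at had the opposite sign (0.84 under CR and 0.59 under resveratrol, neither past the threshold). Fbxl17, which removes wrongly paired BTB proteins, read 1388, 1482, 1579, 1592 and 1604 in old controls. It read 914, 781, 968, 1080.4 and 1201 under CR (log2 change of -0.64, SE 0.12, adjusted p = 0.000312) and 872, 942, 1112, 1109 and 813 under resveratrol (log2 change of -0.67, SE 0.12, adjusted p = 0.000295), again without overlap. Its other probe set gave 0.23 under CR (adjusted p = 0.514).

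**Figure D2:**
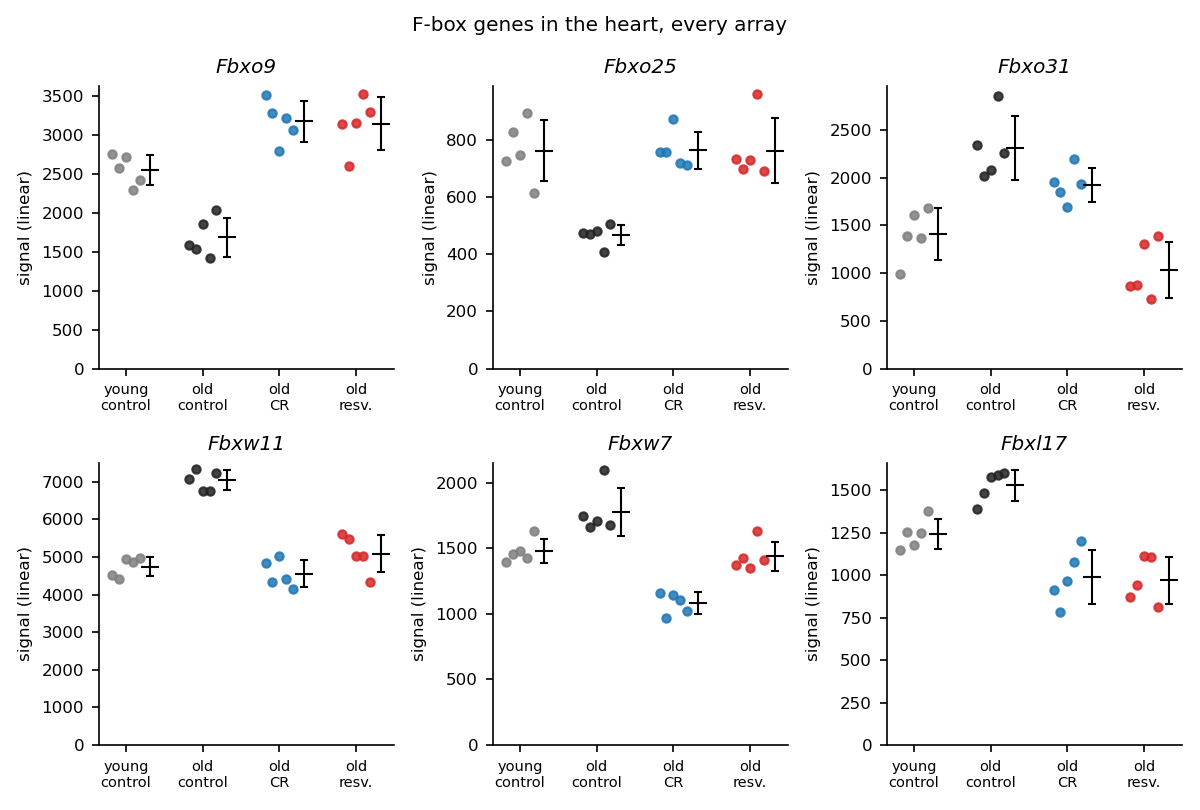
Signal of 6 F-box genes in the heart. Each point is 1 array, the bar beside the points is the mean with the SD of 5 arrays, and the linear axes start at 0. Fbxo9 and Fbxo25 were lowest in old controls, Fbxw11 was highest in old controls, and Fbxo31 was lowest under resveratrol.

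Several heart calls depended on single arrays. With quantile normalization, Fbxo22 with age (adjusted p 0.0506), Fbxw22 (0.0611) and Fbxw4 (0.07) under CR and Fbxw7 under resveratrol (0.0743) were lost. Fbxo36 read 316, 118, 280.2, 765 and 359.6 in old controls and 1103, 482, 591, 463 and 827 under CR (log2 change of 1.08, SE 0.33, adjusted p = 0.0188), with overlap, and the call was lost without any 1 of old CR replicate 1 and old control replicate 2 (adjusted p 0.0655 to 0.0697). On 1449418_s_at Fbxo36 gave -0.19 (adjusted p = 0.844), and the call was lost with the mean of its probe sets (adjusted p 0.359). Fbxl6 read 288, 196, 351, 318 and 229 in old controls and 271, 79.8, 284, 127 and 53.5 under CR (log2 change of -1.02, SE 0.36, adjusted p = 0.0409), with 2 CR arrays inside the old control range, and was lost without any 1 of old CR replicates 2, 4 and 5 and old control replicates 1, 3, 4 and 5 (adjusted p 0.0504 to 0.138). Fbxw22, of the mouse cluster of related Fbxw genes, read 264, 211, 245, 377 and 279 in old controls and 506, 455, 391, 629.7 and 579 under CR (log2 change of 0.90, SE 0.32, adjusted p = 0.0424). Its groups did not overlap, yet the call was lost without any 1 of old CR replicates 1, 2, 4 and 5 and old control replicates 1, 2, 3 and 5 (adjusted p 0.0576 to 0.0955). Fbxo42, known to act on p53, read 415, 477, 620.5, 634 and 683 in old controls and 229, 349, 362, 338 and 485 under resveratrol (log2 change of -0.70, SE 0.21, adjusted p = 0.0234), and was lost without any 1 of old control replicates 3, 4 and 5 and old resveratrol replicate 1 (adjusted p 0.0545 to 0.0875). On 1453382_at Fbxo42 gave 0.94 (adjusted p = 0.171), and the mean of all its probe sets gave -0.04 (adjusted p = 0.941). Fbxw4 fell under CR (-0.41, adjusted p = 0.038) and was lost without any 1 of old CR replicates 3, 4 and 5 and old control replicates 1, 2 and 4 (adjusted p 0.0691 to 0.109). Fbxo8, which acts on the small GTPase ARF6, rose under CR (0.42, adjusted p = 0.0109) and under resveratrol (0.34, adjusted p = 0.0441), the latter lost without any 1 of old control replicates 1, 3, 4 and 5 and old resveratrol replicates 1, 2, 3 and 4 (adjusted p 0.0574 to 0.131).

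CR and resveratrol differed directly for 3 F-box genes in the heart, 2 higher and 1 lower under CR, beside 1.43% and 2.57% of all genes. Besides Fbxo31 and Fbxw7 this was Fbxo21, whose difference of 0.52 (adjusted p = 0.0468) was lost without any 1 of old CR replicates 1, 2, 4 and 5 and old resveratrol replicates 1, 2 and 3 (adjusted p 0.0533 to 0.133). Of 5 members tested from the cell cycle list, 2 rose with age (Fbxo31 and Fbxw11), 2 fell under CR (Fbxw7 and Fbxw11) and 3 fell under resveratrol (Fbxo31, Fbxw7 and Fbxw11), beside 7.05%, 14.1% and 10.5% of all genes. The Actb and Gapdh 3′ to 5′ differences and the macrophage sum separated old controls from both diets too. So did the adipocyte sum (5 of 7 genes measured), at 26362 to 36201 in old controls, 42972 to 51857 under CR and 38817 to 53804 under resveratrol, and the red blood cell sum (4 of 6 genes), at 1876 to 3175, 5584 to 22689 and 3384 to 7989. The fibroblast sum (6 genes) did not overlap under CR (16917 to 35937 against 41844 to 48750), nor the atrial chamber sum (5 genes) under resveratrol (72637 to 158140.0 against 166400.0 to 209210.0). The part of these in the diet results was not tested.

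Of 33 genes of the SCF machinery tested in the heart, 1 rose and 2 fell with age, 2 rose and 4 fell under CR, and 6 rose and 3 fell under resveratrol. Of all genes, 7.05% rose and 3.79% fell with age, 7.98% and 14.1% under CR, and 7.08% and 10.5% under resveratrol. The ubiquitin-conjugating enzyme Ube2r2 rose with age (0.68, adjusted p = 0.00375) and fell under CR (-0.81, adjusted p = 0.000246) and resveratrol (-0.72, adjusted p = 0.00117). Cdc34, its close relative, fell under CR (-0.74, adjusted p = 1.52e-05) and resveratrol (-0.46, adjusted p = 0.0028). Dcun1d1, which helps to attach NEDD8, rose under CR (0.60, adjusted p = 0.0332) and resveratrol (0.71, adjusted p = 0.014), and Dcun1d5, of the same family, fell under CR (-0.63, adjusted p = 2.77e-05). Fbxo32, left out of the members by the rule, fell with age (-0.68, adjusted p = 0.0269) and rose under CR (1.26, adjusted p = 5.24e-05) and resveratrol (0.85, adjusted p = 0.0036).

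In gastrocnemius muscle no F-box gene passed the limma test with age, and 0.257% of all 12825 genes rose and 0.172% fell. Of the 44 members, 5 had an unadjusted p under 0.05, and the methods' t-test called none after Benjamini-Hochberg adjustment. The smallest p was that of Fbxw7 (log2 0.49, adjusted p = 0.13), whose young controls read 1147, 1247, 1101, 1440.2 and 1461. Its old controls read 2163, 1838, 1470.3, 1545 and 1999, all above the young ones, and without young control replicate 4, 1 member was called.

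CR raised 8 F-box genes in muscle and lowered 9, beside 17.5% and 13.6% of all genes, and resveratrol raised 3 and lowered 5, beside 9.42% and 9.26%. The median change of members was -0.03 under CR and -0.07 under resveratrol, against 0.10 and 0.07 over all genes. The CR count fell to 11 without old CR replicate 3 or old control replicate 5, and the resveratrol count to 5 without old resveratrol replicate 2. Fbxw7 fell under both diets. It read 803, 624, 866, 616 and 709 under CR (log2 change of -1.31, SE 0.14, adjusted p = 1.63e-06) and 1238, 1232, 877, 1012 and 1102 under resveratrol (log2 change of -0.72, SE 0.14, adjusted p = 0.00135). Every diet array was below every old control, and all CR arrays lay below all resveratrol arrays. Its second probe set, 1424986_s_at, fell by 1.25 under CR and by 0.50 under resveratrol (adjusted p = 2.12e-06 and 0.0144).

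Fbxo3 read 2742, 4598, 3891, 4232 and 4166 in old controls, 1788, 1632, 1768, 1606 and 1735 under CR (log2 change of -1.18, SE 0.14, adjusted p = 6.55e-06) and 1906, 1740.5, 1662, 1864 and 1934 under resveratrol (log2 change of -1.09, SE 0.14, adjusted p = 3.28e-05). The diet arrays lay below the lowest old control, 2742. On another probe set, 1423491_at, Fbxo3 rose instead, by 0.53 under CR and 0.57 under resveratrol (adjusted p = 0.00341 and 0.0033). Young controls read 4910.0, 5314, 4986, 3162 and 5607. Fbxo8 read 2148, 2461, 2006, 2473 and 1993 in old controls, 1558, 1950.0, 1347, 1272 and 1236 under CR (log2 change of -0.60, SE 0.13, adjusted p = 0.00185) and 1509, 1309, 1243, 1278 and 1309 under resveratrol (log2 change of -0.73, SE 0.13, adjusted p = 0.000654). Both diet groups were below old controls without overlap. The probe set of Fbxo8, 1418510_s_at, may read related transcripts.

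Fbxo30, the atrophy ligase MUSA1, read 592, 611, 581, 543 and 615 in old controls, 882, 875, 864, 911 and 1072 under CR (log2 change of 0.64, SE 0.14, adjusted p = 0.00136) and 918, 724, 661, 879.9 and 1154 under resveratrol (log2 change of 0.53, SE 0.14, adjusted p = 0.00826). All diet arrays were above old controls on this probe set, 1429441_at. On 1453137_at, however, Fbxo30 fell by 0.86 under CR and by 1.15 under resveratrol (adjusted p = 0.000156 and 1.41e-05). Of the 4 members tested from a list known from muscle (Fbxo21, Fbxo25, Fbxo30, Fbxo31), Fbxo30 alone passed the test in muscle, under both diets and on its representing probe set. Of all genes, 17.5% rose under CR and 9.42% under resveratrol.

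Fbxw16, of the mouse cluster of related Fbxw genes, read 123, 49.4, 133, 131 and 64.9 in old controls and 257, 284, 282, 389 and 402 under CR (log2 change of 1.77, SE 0.49, adjusted p = 0.00968), the largest change among the members past the threshold in muscle under CR, without overlap. Fbxo36 read 325, 138, 284, 237 and 164 in old controls and 302, 432, 598, 779 and 415 under CR (log2 change of 1.13, SE 0.28, adjusted p = 0.00416), and 627, 348, 441, 271 and 342 under resveratrol (log2 change of 0.83, SE 0.28, adjusted p = 0.038). One CR array and 1 resveratrol array of Fbxo36 lay inside the old control range, and the resveratrol call was lost without any 1 of old control replicates 2, 4 and 5 and old resveratrol replicates 1, 2 and 3 (adjusted p 0.0507 to 0.116). Fbxo46 read 117, 102, 100.2, 114 and 107 in old controls and 184, 158, 219, 231 and 269.8 under CR (log2 change of 0.95, SE 0.26, adjusted p = 0.00844), without overlap. Fbxo34 read 577, 510.2, 402, 446 and 601 in old controls and 507, 71.8, 82.7, 495 and 359 under CR (log2 change of -1.18, SE 0.44, adjusted p = 0.0449). Its fall rested on CR replicates 2 and 3, while the other 3 read 359 to 507, and the call was lost without any 1 of old CR replicates 2 and 3 and old control replicates 1, 2, 3, 4 and 5 (adjusted p 0.0533 to 0.148).

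Under resveratrol, Fbxo11, which marks the repressor BCL6, read 2149.8, 2416, 2519.9, 2848 and 2265 against 2416, 1512, 1222, 1632 and 1382 in old controls (log2 change of 0.61, SE 0.21, adjusted p = 0.0401), and was lost without any 1 of old control replicates 2, 3, 4 and 5 and old resveratrol replicates 1, 2, 3, 4 and 5 (adjusted p 0.0507 to 0.106). Fbxw2 read 841, 1054, 992, 1059 and 1156 in old controls, 696, 812, 669, 630.2 and 651 under resveratrol (log2 change of -0.56, SE 0.13, adjusted p = 0.00541) and 825, 927, 730.2, 633 and 828 under CR (log2 change of -0.38, SE 0.13, adjusted p = 0.0361). Only the resveratrol arrays were all below old controls, while Fbxw2 rose under resveratrol on 1436487_x_at (1.04, adjusted p = 0.00537) and on 1424884_at (0.54, adjusted p = 0.0247). With quantile normalization the CR call of Fbxw2 (adjusted p 0.128) and the resveratrol call of Fbxo36 (0.0678) were lost. The CR call of Fbxw2 was lost without any 1 of old CR replicates 3 and 4 and old control replicates 2, 3, 4 and 5 (adjusted p 0.0529 to 0.102). Fbxw5, known to act on the mTOR inhibitor TSC2, fell under CR (-0.47, adjusted p = 0.016) and resveratrol (-0.45, adjusted p = 0.0264), the latter lost without any 1 of old control replicates 3 and 4 and old resveratrol replicates 2 and 5 (adjusted p 0.0578 to 0.0847).

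The other CR calls in muscle were rises of Fbxl12 (0.58, adjusted p = 0.0166), Fbxo27 (0.63, adjusted p = 0.0325), Fbxo33 (0.52, adjusted p = 0.0162) and Fbxo9 (0.32, adjusted p = 0.0228) and falls of Fbxo38 (-0.48, adjusted p = 0.0146), Fbxo42 (-0.89, adjusted p = 0.0385) and Fbxo45 (-0.35, adjusted p = 0.0357). Fbxo45 is a synaptic F-box protein and Fbxo27 a glycoprotein binder. Fbxo27 was lost without any 1 of old CR replicates 2, 3 and 4 and old control replicates 1, 3 and 5 (adjusted p 0.0524 to 0.0878), and Fbxo42 without any 1 of old CR replicates 2 and 3 and old control replicates 2, 3, 4 and 5 (adjusted p 0.0571 to 0.13). Fbxo45 was lost without any 1 of old CR replicates 2 and 3 and old control replicates 2, 3 and 5 (adjusted p 0.0515 to 0.0918). With quantile normalization the CR calls of Fbxo27 (adjusted p 0.0942), Fbxo33 (0.052), Fbxo45 (0.123) and Fbxo46 (0.1) were lost. Fbxl12 was lost without old CR replicate 3 (adjusted p 0.0524) and Fbxo9 without old control replicate 5 (adjusted p 0.0575). No member differed between CR and resveratrol (0.257% of all genes higher and 0.304% lower under CR; 6 members had an unadjusted p under 0.05, and the methods' t-test called none after adjustment), but without old resveratrol replicate 3, 1 was called lower under CR.

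**Figure D3:**
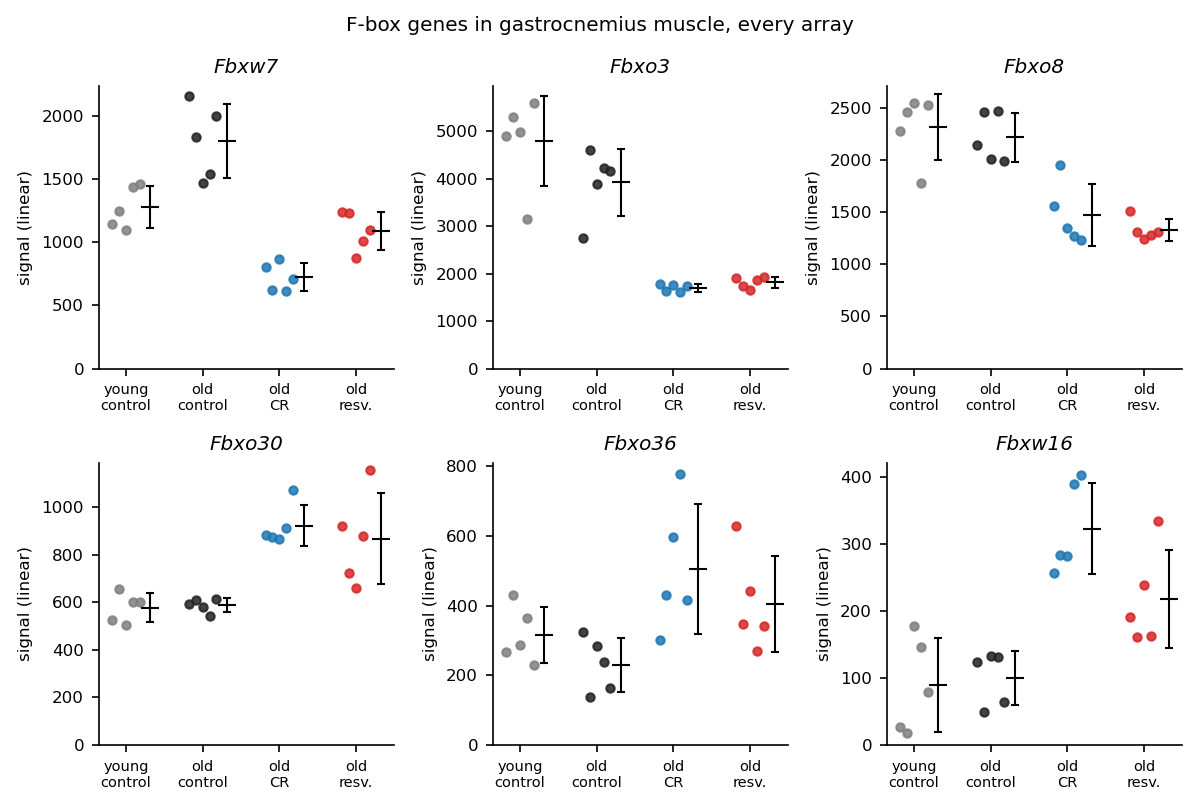
Signal of 6 F-box genes in gastrocnemius muscle. Each point is 1 array, the bar beside the points is the mean with the SD of 5 arrays, and the linear axes start at 0. Fbxw7, Fbxo3 and Fbxo8 were lower and Fbxo30 higher under both diets than in old controls without overlap, and Fbxw16 rose from a low level under CR.

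The poly-A controls separated muscle old controls from both diets (6.40 to 7.19 against 9.16 to 10.6 and 9.84 to 10.3). The endothelial marker sum (6 genes) did so too, at 3883 to 5551 in old controls, 1875 to 3227 under CR and 2681 to 3120 under resveratrol. The macrophage sum read 5871 to 7849 in old controls, 7795 to 15023 under CR, with overlap, and 8469 to 17758 under resveratrol. The atrial chamber list, of which 2 of 5 genes were tested in muscle, summed to 3191 to 4095 in old controls, 6581 to 23797 under CR and 7566 to 10109 under resveratrol. The Gapdh 3′ to 5′ difference given above separated the same groups. The part of these differences in the muscle results was not tested.

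Probe sets of one gene often disagreed in muscle. For 33 pairs of a representing and another probe set of the same member, both above the 40th percentile, 15 had the same sign under CR and 17 under resveratrol. Over all genes, 57.1% of 9721 such pairs had the same sign under CR. In the heart it was 21 of 33 members' pairs and 56.3% of all pairs, and in the neocortex 18 of 35 and 65.8%. Both probe sets passed the threshold with opposite signs in 7 pairs of members in muscle under CR, against 3.96% of all pairs, in 4 under resveratrol, against 2.25%, and in 1 in the heart under CR, against 1.86%.

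The disagreements concern members named above. In muscle under CR, Fbxo3 rose on 1423491_at (0.53, adjusted p = 0.00341) and fell on 1423490_at. Fbxw2 rose on 1436487_x_at (1.14, adjusted p = 0.00176) and on 1424884_at (0.49, adjusted p = 0.0282). Fbxo9 fell by 1.18 on 1432211_a_at (adjusted p = 0.0017), and Fbxo42 rose on 1453382_at (0.68, adjusted p = 0.0279). Fbxo30 also fell on 1453136_at (-0.57, adjusted p = 0.0474). Agreeing pairs were those of Fbxw7, of Fbxo33 (0.95 on 1426871_at, adjusted p = 0.00753) and of Fbxo45 (-1.47 on 1428742_at, adjusted p = 0.002). For Fbxo3, Fbxo30, Fbxw2, Fbxo9 and Fbxo42 the direction in muscle under CR therefore depends on the probe set, and under resveratrol so does that of Fbxo3, Fbxo30 and Fbxw2. In the heart, Fbxo30 did not pass on its representing probe set (log2 0.40 under CR, adjusted p = 0.2), rose on 1453136_at (1.42) and 1453137_at (adjusted p = 0.00034), and fell by 1.08 on 1436550_at.

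**Figure D4:**
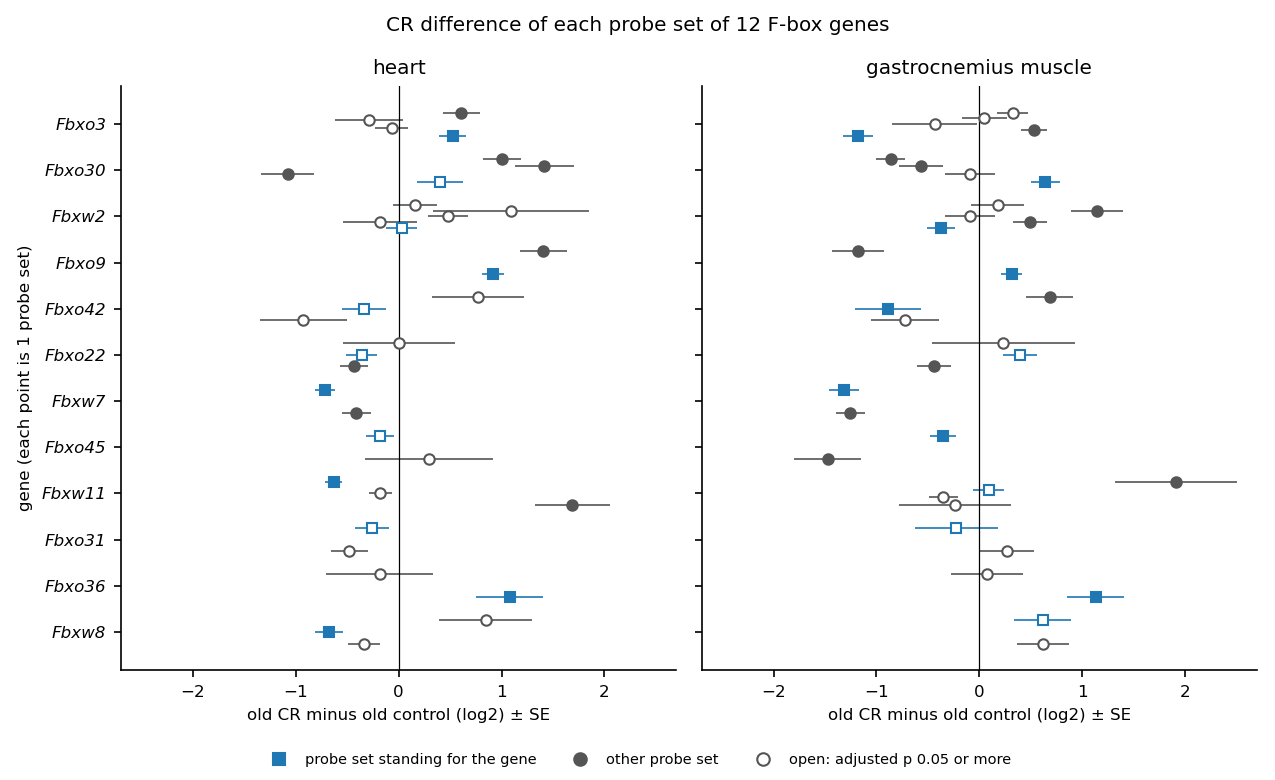
Log2 difference of old CR minus old control for each probe set of 12 F-box genes, in heart and in muscle, with its SE. Squares are the probe sets that represent the genes, and open symbols did not reach an adjusted p under 0.05. Fbxo3, Fbxo30, Fbxw2 and Fbxo9 have probe sets on both sides of 0 in muscle, and both probe sets of Fbxw7 lie below 0 in both tissues.

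Of 33 genes of the SCF machinery tested in muscle, 4 rose and 8 fell under CR and 2 rose and 6 fell under resveratrol, beside 17.5% and 13.6% of all genes under CR and 9.42% and 9.26% under resveratrol. Dcun1d1 fell by 1.77 under CR and by 1.67 under resveratrol (adjusted p = 1.03e-05 and 3.94e-05). Ube2d1 fell by 1.13 and 0.70, and Ube2d3 by 0.64 and 0.68. Ube2r2 rose instead, by 0.48 under CR and 0.69 under resveratrol (adjusted p = 0.011 and 0.0013). Its groups overlapped under CR and not under resveratrol. Fbxo32, which rose under CR in the heart, fell under CR in muscle (-0.69, adjusted p = 0.049). Btrc, an F-box gene under another name, fell as well (-0.66, adjusted p = 0.0229). The groups overlapped for both genes, and neither passed under resveratrol. Nedd8, the modifier itself, rose by 0.65 under each diet.

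In the neocortex 1 F-box gene fell with age and none rose, beside 0.383% and 1.08% of all 13051 genes (limma; 7 members had an unadjusted p under 0.05, and the methods' t-test called none after adjustment). Fbxo41 read 2059, 2194, 2208, 1724 and 2017 in young controls and 1674, 1561, 1345, 1347 and 1632 in old controls (log2 change of -0.43, SE 0.11, adjusted p = 0.0487). The groups did not overlap. The call was lost without any 1 of old control replicates 2, 3, 4 and 5 and young control replicates 1, 2, 3 and 5 (adjusted p 0.0554 to 0.141), and the second probe set, 1440376_at, gave -0.04 (adjusted p = 0.932).

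CR raised 8 F-box genes in the neocortex and lowered 11, beside 13.1% and 17.5% of all genes. Resveratrol raised 4 and lowered 13, beside 12.3% and 13.9%. The median change of the 52 members was -0.10 under CR and -0.04 under resveratrol, against -0.03 and -0.01 over all genes. Fbxo41 fell under both diets as well. It read 1099.9, 995, 1063, 1447 and 1045 under CR (log2 change of -0.43, SE 0.11, adjusted p = 0.00516), with replicate 4 inside the old control range, and 1130.4, 936, 1289, 1112 and 871 under resveratrol (log2 change of -0.51, SE 0.11, adjusted p = 0.00144), all below old controls. Its second probe set fell by 0.52 and by 0.70 (adjusted p = 0.00774 and 0.000652). Fbxl16 read 12832, 13147, 11975, 12278 and 15496 in old controls. Under CR it read 9092, 8366, 8707, 10783 and 10064 (log2 change of -0.48, SE 0.11, adjusted p = 0.0026), and under resveratrol 10316, 10043, 10534, 9074 and 8794 (log2 change of -0.43, SE 0.11, adjusted p = 0.00736), with no overlap.

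Other leucine-rich members fell under the diets. Fbxl19, which binds unmethylated CpG islands, read 351, 518, 414, 474 and 382 in old controls. It read 299, 220.4, 271, 274 and 296 under CR (log2 change of -0.65, SE 0.14, adjusted p = 0.00152) and 266, 185, 348, 244 and 281 under resveratrol (log2 change of -0.71, SE 0.14, adjusted p = 0.000814). Every diet array of Fbxl19 was below the old controls. Fbxl6 read 491, 509, 598, 621 and 679 in old controls and 353, 505, 352, 412 and 416 under CR (log2 change of -0.51, SE 0.12, adjusted p = 0.00201), with CR replicate 2 inside the old control range. Under resveratrol Fbxl6 read 374, 386, 356, 359 and 375 (log2 change of -0.64, SE 0.12, adjusted p = 0.000303), all below old controls. Fbxl18 read 227, 229.7, 176, 262 and 303 in old controls and 132, 174, 209, 159.6 and 161 under resveratrol (log2 change of -0.51, SE 0.15, adjusted p = 0.0117), with overlap.

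Fbxw5 read 816, 875, 786, 878 and 1060.1 in old controls and 478, 688, 632, 705 and 658 under CR (log2 change of -0.49, SE 0.11, adjusted p = 0.00189), all CR arrays being lower, and it fell by 0.41 under resveratrol (adjusted p = 0.00813). Fbxo42 read 796, 626, 609, 624 and 666 in old controls and 492, 473, 378, 541 and 559.6 under CR (log2 change of -0.45, SE 0.13, adjusted p = 0.00899), again without overlap, while its other probe set gave 0.03 (adjusted p = 0.918). Fbxo38 read 806, 682, 729, 731 and 744 in old controls and 512, 594, 528, 484 and 562 under resveratrol (log2 change of -0.46, SE 0.12, adjusted p = 0.00711). Its CR change of -0.35 (adjusted p = 0.0353) was lost without any 1 of old CR replicates 2, 3, 4 and 5 and old control replicates 1, 3, 4 and 5 (adjusted p 0.0522 to 0.0916), and with quantile normalization (0.0947), whereas no resveratrol array overlapped old controls.

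Fbxo22 rose in the neocortex. It read 1946, 1798, 1661, 2084 and 2048 in old controls, 2227, 2612, 2789, 2328 and 2481 under CR (log2 change of 0.38, SE 0.08, adjusted p = 0.000678) and 2739, 3037, 3002, 3309 and 2829 under resveratrol (log2 change of 0.65, SE 0.08, adjusted p = 3.36e-06). All diet arrays were above old controls, but 1426592_a_at and 1452121_at did not follow (-0.21 and -0.35 under resveratrol, neither past the threshold). Fbxw11 read 8705, 7727, 7879, 8274 and 9172 in old controls, 10199, 10091, 11227, 10574 and 10103 under CR (log2 change of 0.32, SE 0.06, adjusted p = 0.000109) and 10750.0, 11187, 10882, 11556 and 11921 under resveratrol (log2 change of 0.43, SE 0.06, adjusted p = 6.3e-06). Both diets were above old controls without overlap, while 1425461_at fell by 0.55 under resveratrol (adjusted p = 0.00234). On 1425462_at Fbxw11 gave -0.05 under CR and -0.10 under resveratrol (adjusted p = 0.702 and 0.443). With the mean of all its probe sets both calls were lost (adjusted p 0.0783 and 0.098).

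**Figure D5:**
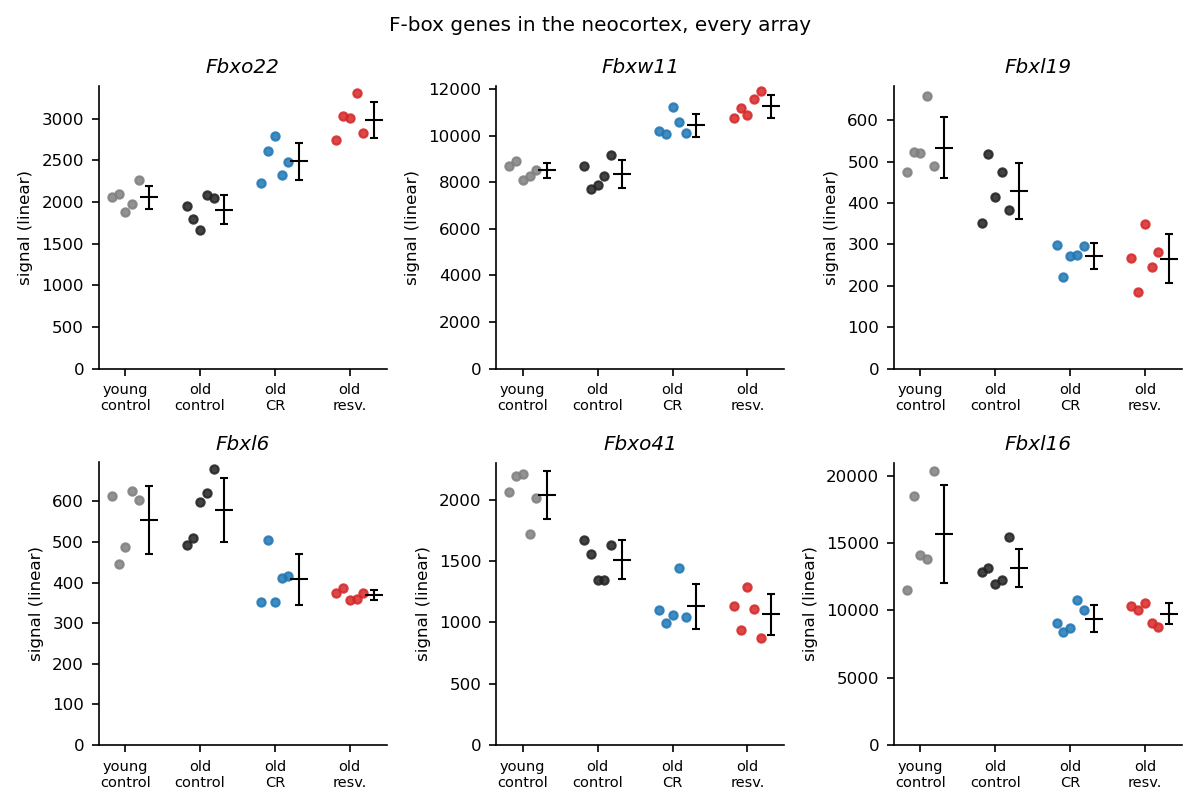
Signal of 6 F-box genes in the neocortex. Each point is 1 array, the bar beside the points is the mean with the SD of 5 arrays, and the linear axes start at 0. Fbxo22 and Fbxw11 were above and Fbxl19 and Fbxl16 below old controls under both diets without overlap.

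Calls of smaller size in the neocortex under CR were rises of Fbxl15 (0.29, adjusted p = 0.032), Fbxl5 (0.32, adjusted p = 0.0108), Fbxo25 (0.25, adjusted p = 0.0216), Fbxo33 (0.28, adjusted p = 0.0295), Fbxo9 (0.24, adjusted p = 0.00523) and Fbxw2 (0.29, adjusted p = 0.0114). Falls were those of Fbxl17 (-0.35, adjusted p = 0.00813), Fbxo31 (-0.34, adjusted p = 0.0214), Fbxo44 (-0.29, adjusted p = 0.018) and Fbxw4 (-0.40, adjusted p = 0.002). Fbxl5, the iron-sensing receptor that degrades IRP2, rose under resveratrol as well (0.35, adjusted p = 0.0069), as did Fbxo33 (0.39, adjusted p = 0.00392). Resveratrol lowered Fbxl17 (-0.32, adjusted p = 0.0143), Fbxo2 (-0.28, adjusted p = 0.00334), Fbxo27 (-0.43, adjusted p = 0.00225), Fbxo31 (-0.39, adjusted p = 0.0116), Fbxo44 (-0.38, adjusted p = 0.00278) and Fbxw4 (-0.32, adjusted p = 0.0107). Under CR, Fbxl15 was lost without any 1 of old CR replicates 2, 4 and 5 and old control replicates 3, 4 and 5 (adjusted p 0.0538 to 0.0892), Fbxo33 without any 1 of old CR replicates 2 and 3 and old control replicates 2, 4 and 5 (adjusted p 0.0526 to 0.0873) and Fbxo44 without old CR replicate 3 (adjusted p 0.0517). Fbxo25 was lost without any 1 of old CR replicates 1 and 3 and old control replicate 5 (adjusted p 0.0528 to 0.0695) and Fbxo31 without any 1 of old CR replicate 5 and old control replicates 1 and 4 (adjusted p 0.0522 to 0.0579). Averaging all probe sets lost the CR calls of Fbxl17 (adjusted p 0.0594), Fbxo31 (0.0653), Fbxo33 (0.24), Fbxo9 (0.818) and Fbxw2 (0.0875). It also lost the resveratrol calls of Fbxl17 (0.306), Fbxo27 (0.115) and Fbxo44 (0.171). Under CR, 1432211_a_at of Fbxo9 gave -0.19 and 1451524_at of Fbxw2 gave -0.06, neither past the threshold. Under resveratrol, 1430241_at of Fbxl17 gave 0.05 (adjusted p = 0.805).

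By role, 3 of 6 nervous system members (Fbxo2, Fbxo41, Fbxl16) fell under resveratrol in the neocortex and 2 (Fbxo41, Fbxl16) under CR, where 13.9% and 17.5% of all genes fell. Of the 5 glycoprotein binders, Fbxo2, Fbxo27 and Fbxo44 fell under resveratrol and Fbxo44 under CR, beside the same shares, whereas Fbxo6 and Fbxo17 did not pass. With the mean of all probe sets the resveratrol calls of Fbxo27 (adjusted p 0.115) and Fbxo44 (0.171) were lost. On 1430541_at Fbxo44 gave 0.03 under resveratrol (adjusted p = 0.916). Of 3 members tied to iron and mitochondria, Fbxl5 rose under each diet (13.1% of all genes rose under CR and 12.3% under resveratrol) and Fbxl4 and Fbxo7 passed in no comparison with old controls in any tissue. The neuronal marker sum (8 genes) ranged from 82666 to 100970 in old controls, 79954 to 97986 under CR and 74982 to 90719 under resveratrol, and the macrophage or microglia sum (10 genes) from 14311 to 17382, 12949 to 15208 and 17541 to 24621. The astrocyte sum (5 genes) was 13674 to 17560.0 in old controls and 10654 to 12088 under CR, without overlap and with 3 of 5 genes lower, and 13413 to 14830.0 under resveratrol. The striatal sum (4 of 6 genes measured) ranged from 7217 to 10869 in old controls, 2031 to 8600 under CR and 1659 to 7644 under resveratrol. All 4 striatal genes passed as lower under CR and 1 under resveratrol, beside 17.5% and 13.9% of all genes. Of the 8 neuronal markers, 1 passed as lower under CR and 4 under resveratrol, and none as higher. The Actb 3′ to 5′ difference was 0.45 to 0.60 in old controls, 0.66 to 0.77 under CR and 0.76 to 1.01 under resveratrol. The poly-A controls read 8.49 to 9.25 in old controls and 9.46 to 10.0 under resveratrol (adjusted p = 0.022, exact permutation test). The part of these in the neocortex results was not tested.

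Between CR and resveratrol in the neocortex, 3 members were higher and 2 lower under CR, beside 3.67% and 5.62% of all genes. They were Fbxo34 (0.36, adjusted p = 0.0358), Fbxw2 (0.28, adjusted p = 0.0353) and Fbxo9 (0.22, adjusted p = 0.0302), higher under CR, and Fbxo22 (-0.26, adjusted p = 0.0355) and Fbxo3 (-0.29, adjusted p = 0.0206), lower under CR. Fbxo3, Fbxo22 and Fbxw2 each had other probe sets of the opposite sign, none past the threshold. With the mean of all probe sets, Fbxo3 gave -0.00629 (adjusted p 0.982) and Fbxw2 0.016 (adjusted p 0.973). The count was 1 without old CR replicate 2 or 4 or old resveratrol replicate 4, and 3 without old CR replicate 5 or old resveratrol replicate 1, 2 or 3. Fbxo22 was lost without any 1 of old CR replicates 1, 2, 4 and 5 and old resveratrol replicates 2, 3 and 4 (adjusted p 0.0511 to 0.104) and Fbxo34 without any 1 of old CR replicates 1, 2 and 5 and old resveratrol replicates 1, 2 and 5 (adjusted p 0.0619 to 0.0971). Fbxw2 was lost without any 1 of old CR replicates 2, 4 and 5 and old resveratrol replicates 2, 3 and 4 (adjusted p 0.0644 to 0.0993), Fbxo9 without any 1 of old CR replicates 2 and 4 and old resveratrol replicates 1 and 4 (adjusted p 0.0638 to 0.0837) and Fbxo3 without any 1 of old CR replicate 4 and old resveratrol replicate 4 (adjusted p 0.0505 to 0.0529).

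Of 35 genes of the SCF machinery tested in the neocortex, 10 rose and 4 fell under CR and 9 rose and 4 fell under resveratrol, beside 13.1% and 17.5% of all genes under CR and 12.3% and 13.9% under resveratrol. Of the 9 subunits of the COP9 signalosome, 6 rose and 1 fell under CR, and 3 rose and 1 fell under resveratrol, with the same shares of all genes beside them. Cops5, the subunit that removes NEDD8, rose by 0.39 under CR (adjusted p = 0.000119), and Cops7a fell under CR (-0.33, adjusted p = 0.000506) and resveratrol (-0.54, adjusted p = 2.94e-06). Nae1, a subunit of the NEDD8-activating enzyme, rose under CR (0.47, adjusted p = 0.00026) and its partner Uba3 under resveratrol (0.47, adjusted p = 0.000344). Ube2r2 fell under CR (-0.54, adjusted p = 0.000797).

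Whether a change differed between the 3 tissues was tested in 1 model of all 60 arrays. The age change differed for 4 members (Fbxo9, Fbxo25, Fbxw11 and Fbxw7), beside 5.53% of all genes. The CR change differed for 19, beside 27.1%, and the resveratrol change for 12, beside 19.4%. Fbxw7 fell under CR in muscle and heart and gave a log2 change of 0.26 in the neocortex (adjusted p = 1.72e-10 for the difference between tissues). Fbxo3 rose in the heart and fell in muscle on the same probe set, with -0.18 in the neocortex under CR (adjusted p = 1.84e-10) and 0.10 under resveratrol (adjusted p = 1.71e-09). Fbxo8 likewise rose in the heart and fell in muscle under resveratrol (adjusted p = 6.88e-06). Fbxw11 fell in the heart and rose in the neocortex under both diets (adjusted p = 1.65e-06 under CR and 3.61e-06 under resveratrol), on the probe set that may read related transcripts. Another of its probe sets, 1425462_at, did not rise in the neocortex under either diet. Fbxo9 changed with age in the heart and gave 0.03 in muscle and -0.11 in the neocortex (adjusted p = 0.000988).

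Counted over the 3 comparisons with old controls, 35 of the 54 tested members passed in at least 1 tissue, beside 62.9% of all 15029 genes tested. Fbxo9 and Fbxo42 passed in all 3 tissues on their representing probe sets, as did 5.08% of all genes. Fbxo42 fell in each on its representing probe set, under resveratrol in the heart and under CR in muscle and neocortex, with values and the arrays it depends on given above. Another of its probe sets had the opposite sign in each of these comparisons: 0.94 in heart and 0.68 in muscle (1453382_at) and 0.03 in neocortex (1427071_at). Only that in muscle passed the threshold. For Fbxo9 under CR, 1432211_a_at fell by 1.18 in muscle (adjusted p = 0.0017) and gave -0.19 in neocortex (adjusted p = 0.277). With the mean of its probe sets, the CR change of Fbxo9 was -0.43 in muscle, and the call in neocortex was lost (adjusted p 0.818). The arrays of a group are biological replicates by their labels, and the limma p-values set differences between groups against the spread of arrays within groups.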

How the data were processed

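Heart, gastrocnemius muscle and neocortex RNA of 4 groups was measured on 60 arrays. The authors made the deposited signal intensities with GCOS 1.2, which summarises a probe set into a linear intensity and scales each array to a trimmed mean of 500. Arrays of a tissue were brought here to a shared trimmed mean (2% trim), and log2 was taken after a floor of 1. A gene was represented by its probe set of highest overall mean, and genes under the 40th percentile of mean signal of a tissue were not tested within that tissue. Gene symbols came from the platform annotation. Groups, 5 arrays each, came from the labels.

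The 4 groups of a tissue were fitted with limma 3.58.1 under R 4.3.3 (lmFit and trended eBayes). Benjamini-Hochberg adjustment ran over all genes tested, with a threshold of 0.05. Age is old control minus young control, and diets are minus old control. Levels of young controls in the tissues and differences of an effect between tissues were tested in a model of all 60 arrays, which treats samples of different tissues as independent. Array quality values were compared by exact permutation, two-sided, whose smallest p is 0.00794 before adjustment. The limma step was tested on simulated data. Plots were made with matplotlib 3.10.9 and tables with pandas 2.3.3, in Python 3.11.15, with exact tests from scipy 1.17.1 and numpy 2.4.6. The number of arrays limits the precision. The scaling assumes that most transcripts keep their level.

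Alternatives were quantile normalization, log2(signal + 16), no filter or the 60th percentile, the methods' t-test, only the groups compared, every probe set or the mean of all probe sets, the replicate number as a block, and leaving out arrays. Leaving out the pair of heart and the pair of muscle arrays that stand apart was added after seeing the data. Members and lists were chosen with earlier results of these data known. Per tissue and comparison, every array is given for up to 6 called members with the largest change, other called members are given with change and p, and up to 8 members per pair of tissues and 4 SCF machinery genes per comparison are named. Other genes with values were added after their values were seen. Probe sets with several symbols were not used for genes.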

Additional observations from a re-analysis of the deposited data

Results flagged for a closer look

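Of 128 groups of 5 arrays looked at for members given with every array, 10 held an array far from its group by Dixon's gap, and chance alone gives about 1 in 20 groups. In the heart these were Fbxo25 in old resveratrol replicate 4 (961.6, above its group), Fbxw7 in old control replicate 4 (2099) and Fbxw7 in old resveratrol replicate 4 (1634). In muscle they were Fbxo3 in young control replicate 4 (3162, below its group), Fbxo30 in old CR replicate 5 (1072), Fbxo34 in young control replicate 3 (381) and Fbxo8 in old resveratrol replicate 1 (1509). In neocortex they were Fbxo38 in old CR replicate 1 (854), Fbxo41 in old CR replicate 4 (1447) and Fbxw5 in old CR replicate 1 (478).

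A change that differed between the 3 tissues is listed for all 54 tested members, with the adjusted p of limma's test of that difference. The age change differed for Fbxo9 (0.000988), Fbxo25 (0.00195), Fbxw11 (0.0144) and Fbxw7 (0.0296). The CR change differed for Fbxw7 (1.72e-10), Fbxo3 (1.84e-10), Fbxw11 (1.65e-06), Fbxo9 (1.7e-05), Fbxo8 (1.86e-05), Fbxw8 (0.00134), Fbxo22 (0.00293), Fbxo34 (0.0037), Fbxw2 (0.00748), Fbxl6 (0.0112), Fbxo46 (0.0131), Fbxo30 (0.0165), Fbxo25 (0.0169), Fbxl12 (0.0335), Fbxl17 (0.0394), Fbxo44 (0.0427), Fbxl5 (0.0443), Fbxo27 (0.0446) and Fbxl4 (0.0494). The resveratrol change differed for Fbxo3 (1.71e-09), Fbxo9 (2.15e-07), Fbxw11 (3.61e-06), Fbxo8 (6.88e-06), Fbxw7 (2.35e-05), Fbxw8 (0.000778), Fbxl17 (0.00173), Fbxo25 (0.00938), Fbxo27 (0.0131), Fbxo31 (0.0184), Fbxl5 (0.0261) and Fbxw2 (0.0391).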

How the results depend on the processing

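Of 97 single calls of members, 34 stayed past the threshold in the same direction under all alternatives run, and 65 under every omission of 1 array. Averaging all probe sets of a gene changed most. It turned the direction of Fbxw11 in the heart (-0.17 with age, 0.19 under CR, 0.00701 under resveratrol), of Fbxo30 in muscle (-0.22 and -0.13 under CR and resveratrol), of Fbxo9 (-0.43, CR) and Fbxw2 (0.93 and 0.79) in muscle, and of Fbxo22 between the diets in neocortex (0.0909). It gave 3, 6, 4 and 1 members for age, CR, resveratrol and the diet difference in heart, 1 for the diet difference in muscle, and 0 for age, 11 for CR and 1 for the diet difference in neocortex. The methods' t-test with Benjamini-Hochberg adjustment gave 1 for the diet difference in heart, 0 for age and 1 for the diet difference in neocortex, and at a P of 0.01 or less 1 for age and 3 for the diet difference in muscle and 2 for age in neocortex. Every probe set on its own gave 1 for age, 13 for resveratrol and 1 for the diet difference in muscle and 0 for age in neocortex. The diet difference in muscle was 1 with the filter at the 60th percentile or without the 2 arrays that stand apart. In neocortex, age gave 0 without a filter, and the diet difference gave 1 with only the 2 groups in the fit. Leaving out 1 array gave 4 to 5, 9 to 12, 7 to 11 and 2 to 4 in heart (age, CR, resveratrol, diet difference), 0 to 1, 11 to 17, 5 to 11 and 0 to 1 in muscle, 0 to 1, 15 to 20, 17 to 18 and 1 to 7 in neocortex, and 22 to 28, 32 to 35 and 37 to 40 for muscle against heart, neocortex against heart and neocortex against muscle. Without the 2 arrays that stand apart in each of heart and muscle, Fbxo22 (age), Fbxl6 and Fbxw4 (CR) and Fbxo8 and Fbxw7 (resveratrol) were lost in heart and Fbxo27 and Fbxo34 (CR) in muscle, with adjusted p 0.0519 to 0.0876. Single calls that lost significance without turning direction numbered 36 with the mean of all probe sets, 28 with the methods' t-test after adjustment, 13 with only the groups compared, 11 with quantile normalization (adjusted p 0.0506 to 0.128) and 9 without a filter. Quantile normalization and log2(signal + 16) moved no count by over 1.5 times. The cause was not tested. With the replicate number as a block, age gave 0 in neocortex (Fbxo41, adjusted p 0.0683), and Fbxw22 and Fbxw4 under CR and Fbxo21 between the diets were lost in heart (0.0565, 0.056 and 0.05). Same-numbered arrays correlated by -0.17 to 0.11, so the numbers pair nothing, and the other counts under the block were within 1.5 times. Calls of dim genes are limited by the signal over background.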
